A study of Mus musculus with 20 samples.

Results

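The genes described here are the guidance families of the mouse transcriptome: the Eph receptors and their ephrin ligands, the semaphorins with their plexin and neuropilin receptors, the netrins with their Unc5 receptors, and the Slits with their Robo receptors. Members were taken by symbol, as every entry whose name begins with Epha, Ephb, Efna, Efnb, Plxna, Plxnb, Plxnc, Plxnd, Robo, Slit or Unc5, or with Sema, Nrp or Ntn followed by a digit, without Slitrk genes and 1 semaphorin. This rule used no measured value and found 69 of 23361 entries. They were 9 EphA and 5 EphB receptors, 5 ephrin-A and 3 ephrin-B ligands, 7 secreted and 12 membrane-bound semaphorins, 9 plexins, 2 neuropilins, 4 netrins, 4 Unc5 receptors, 3 Slits and 4 Robo receptors. Another 2 genes, Unc50 and Unc5cl, match the prefix and were not counted with the Unc5 receptors. Unc50 is no netrin receptor, and without it 68 members remain.

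Messenger RNA was sequenced in stranded libraries while mouse embryonic stem cells turned into epiblast stem cells. The cells were of the PGK line, which is female, or of the E14 line, which is male, and were held in 2i medium (day 0) and then moved to N2B27 medium with activin A and Fgf2 on fibronectin. Each line was sampled at day 0, day 4, day 10, days 19 to 23 and days 27 to 30 in 2 experiments, diff2 and diff3, which gave 20 libraries in 10 groups of 2. The labels name no allele or further agent, and each sex is 1 line, so that sex and line cannot be told apart. The labels do not say whether the 2 experiments began from separate cultures, and p-values measure the spread between these libraries alone. Day 0 is the naive state, and the later cells are called primed.

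Library totals ran from 2020254 to 26936415 counts. The diff3 libraries of E14 at day 0 and day 4 held 3376500 and 2020254 counts, so that 3 counts there equal 0.888 and 1.48 CPM (counts relative to the library total, on the usual CPM scale), against 0.111 to 0.253 CPM in the other libraries. The 6 diff2 libraries of days 0, 4 and 10 carry a code in their titles that the other libraries lack. Summed CPM of 14 naive genes ran from 6456 to 8798 at day 0 and from 122 to 165 at days 27 to 30, while that of 12 primed genes ran from 126 to 242 and from 2829 to 4040, the order that the labelled stages give. Replicates had a Pearson r of 0.856 to 0.983 across genes, which are not independent replicates.

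Guidance proteins steer growing axons and migrating cells by attraction or repulsion, and outside the nervous system they set tissue boundaries and vessel paths. Eph receptors are tyrosine kinases that bind ephrins on a neighbouring cell: EphA receptors mostly bind ephrin-A ligands, which are held by a lipid anchor, and EphB receptors mostly bind ephrin-B ligands, which span the membrane and signal in reverse. Class 3 semaphorins are secreted and act through neuropilins paired with A-type plexins, with the exception of Sema3e, which binds Plxnd1. Netrin-1 acts through Dcc, neogenin and the Unc5 receptors, which also serve as dependence receptors, and Slits bind Robo receptors with heparan sulfate.

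The 4 members followed most closely below are Epha1 and Efnb2, which rose at day 4 in both lines, and Epha4 and Slit2, which fell in both. Epha1 lies at chr6:42358487-42373268 on the minus strand of GRCm38, Efnb2 at chr8:8617434-8661242 (minus), Epha4 at chr1:77367185-77515088 (minus) and Slit2 at chr5:47983138-48307733 (plus), in GENCODE release M21. The 250 bases before each start, from RefSeq on GRCm38.p6, are shown 5′ to 3′ with CG dinucleotides in capitals, so that the base make-up of the risen and the fallen pair can be compared.
Epha1 (chr6:42373269-42373518, minus): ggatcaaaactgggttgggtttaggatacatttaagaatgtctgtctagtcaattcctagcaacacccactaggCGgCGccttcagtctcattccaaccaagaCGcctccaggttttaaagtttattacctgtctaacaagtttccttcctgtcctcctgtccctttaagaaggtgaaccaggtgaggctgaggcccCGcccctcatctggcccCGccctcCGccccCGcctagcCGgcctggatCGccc
Efnb2 (chr8:8661243-8661492, minus): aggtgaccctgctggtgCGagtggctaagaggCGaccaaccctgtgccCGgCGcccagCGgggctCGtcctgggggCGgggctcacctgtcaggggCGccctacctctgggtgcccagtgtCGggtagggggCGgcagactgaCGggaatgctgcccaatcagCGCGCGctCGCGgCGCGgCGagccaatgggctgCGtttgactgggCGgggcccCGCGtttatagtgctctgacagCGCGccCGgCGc
Epha4 (chr1:77515089-77515338, minus): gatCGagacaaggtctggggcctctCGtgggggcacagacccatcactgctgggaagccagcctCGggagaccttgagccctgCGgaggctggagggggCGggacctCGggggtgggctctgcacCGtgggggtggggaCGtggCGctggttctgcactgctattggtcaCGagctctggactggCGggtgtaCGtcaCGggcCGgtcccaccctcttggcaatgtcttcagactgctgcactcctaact
Slit2 (chr5:47982905-47983154, plus): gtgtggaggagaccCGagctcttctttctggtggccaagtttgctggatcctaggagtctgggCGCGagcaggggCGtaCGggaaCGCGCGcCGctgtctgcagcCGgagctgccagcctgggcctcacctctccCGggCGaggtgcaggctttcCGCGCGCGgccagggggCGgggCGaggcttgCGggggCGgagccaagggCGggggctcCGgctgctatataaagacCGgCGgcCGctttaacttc

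The 4 windows held 9, 27, 14 and 25 CG dinucleotides in that order, so the risen pair holds both the fewest and the most. Their GC content was 54.4%, 72%, 66% and 69.6%. Over 76 windows of the 60 members with an entry the median was 15 CG and 64.4% GC, against 6 CG and 52.4% GC over all 32841 windows. A set of 3 motifs were searched on both strands, none of which contains another: CTTTGAT of TCF/LEF factors, CCGGAAG of ETS factors and TGANTCA of AP-1. They were found in 1, 3 and 3 of the members' 76 windows (1.32%, 3.95% and 3.95%), so that single windows move these shares. Over all windows the shares were 3.21%, 6.91% and 6.75%. None of the 4 windows shown held a match. A match is a description of letters only.

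By edgeR's quasi-likelihood test with an adjusted p under 0.05 (the call used throughout), 14 members rose and 5 fell in PGK between day 0 and day 4, which is 28.8% of the 66 tested against 14.8% of all genes tested (8.35% higher and 6.44% lower). In E14, 9 rose and 6 fell, 24.2% of 62 against 9.56% (5.16% higher and 4.4% lower). Between day 0 and days 27 to 30, 24 rose and 5 fell in PGK, 43.9% against 25.1% (13% and 12%), and 19 rose and 3 fell in E14, 35.5% against 13.7% (8.73% and 4.99%). The members' median log2 fold change at days 27 to 30 was 1.79 in PGK (1.68 with genes that lack counts in a group at their bound) against -0.06 over all genes, and 2.01 in E14 against 0.19. At day 4 it was 0.35 against -0.01 in PGK and 0.47 (0.40 with bounds) against 0.15 in E14. From day 4 to day 10 it was 0.71 in PGK and 0.92 in E14, with no median over all genes given beside it. In this mixed RNA, fewer cells of a type and less RNA per cell cannot be told apart.

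**Figure D1:**
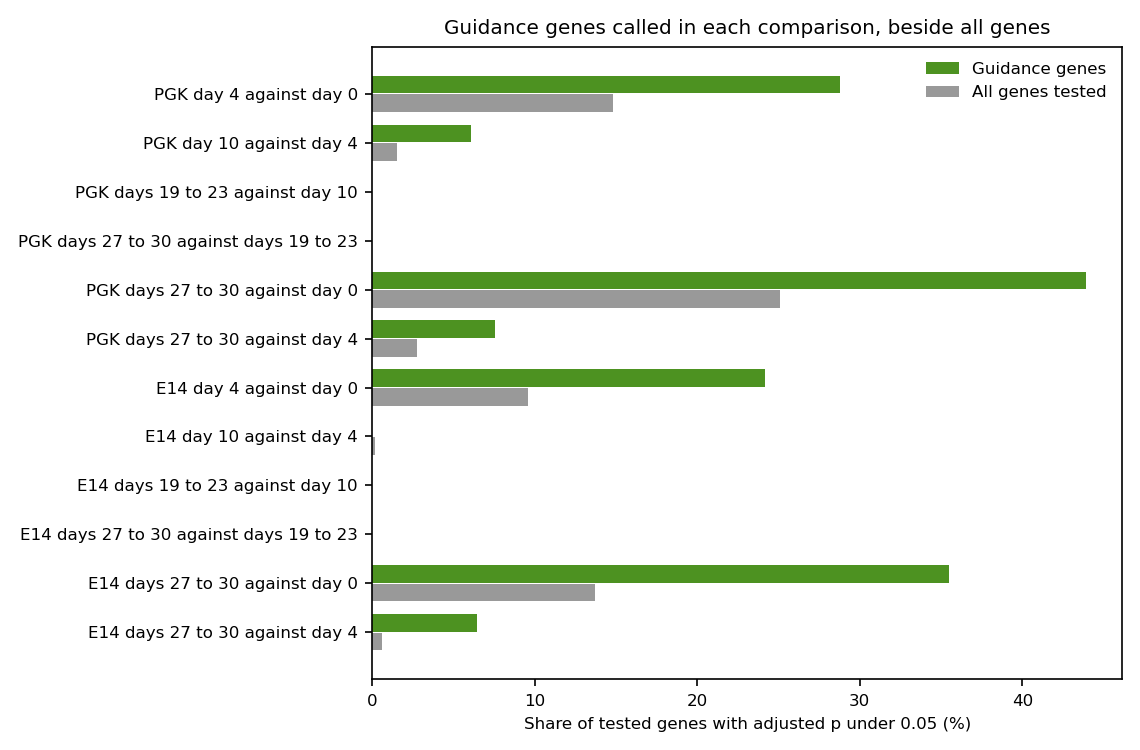
Share of tested genes with an adjusted p under 0.05 (x axis, %) in each of the 12 comparisons within a line (y axis), for the guidance genes (green bars) and for all genes tested (grey bars). The green bar is the longer one in the comparisons with day 0 and in those of days 27 to 30 with day 4. From day 4 to day 10 it is the longer one in PGK, and the grey bar is in E14. Both are at 0 in the late single steps.

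Of the 66 members tested in a line, 38 were called in at least 1 of the 12 comparisons within a line, 57.6% against 31% of all genes. The filter on low counts removed Epha6, Ntn5 and Plxnb3 from the PGK fit, and those 3 with Epha3, Epha5, Robo4 and Sema3g from the E14 fit, where none of the removed genes exceeded 2.24 CPM. At day 4, 8 genes rose in both, 57.1% of the PGK list and 88.9% of the E14 list: Epha1, Efnb2, Efna5, Plxnb1, Sema3c, Sema3e, Sema6a and Unc5b. Another 4 fell in both, 80% of the PGK list and 66.7% of the E14 list: Epha4, Ephb3, Sema4b and Slit2. At days 27 to 30, 17 rose in both (70.8% and 89.5%), and 2, Epha4 and Sema4b, fell in both (40% and 66.7%). Day 4 and days 27 to 30 were compared with the same day 0 libraries. The share of all genes called in both lines is not given here.

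**Figure D2:**
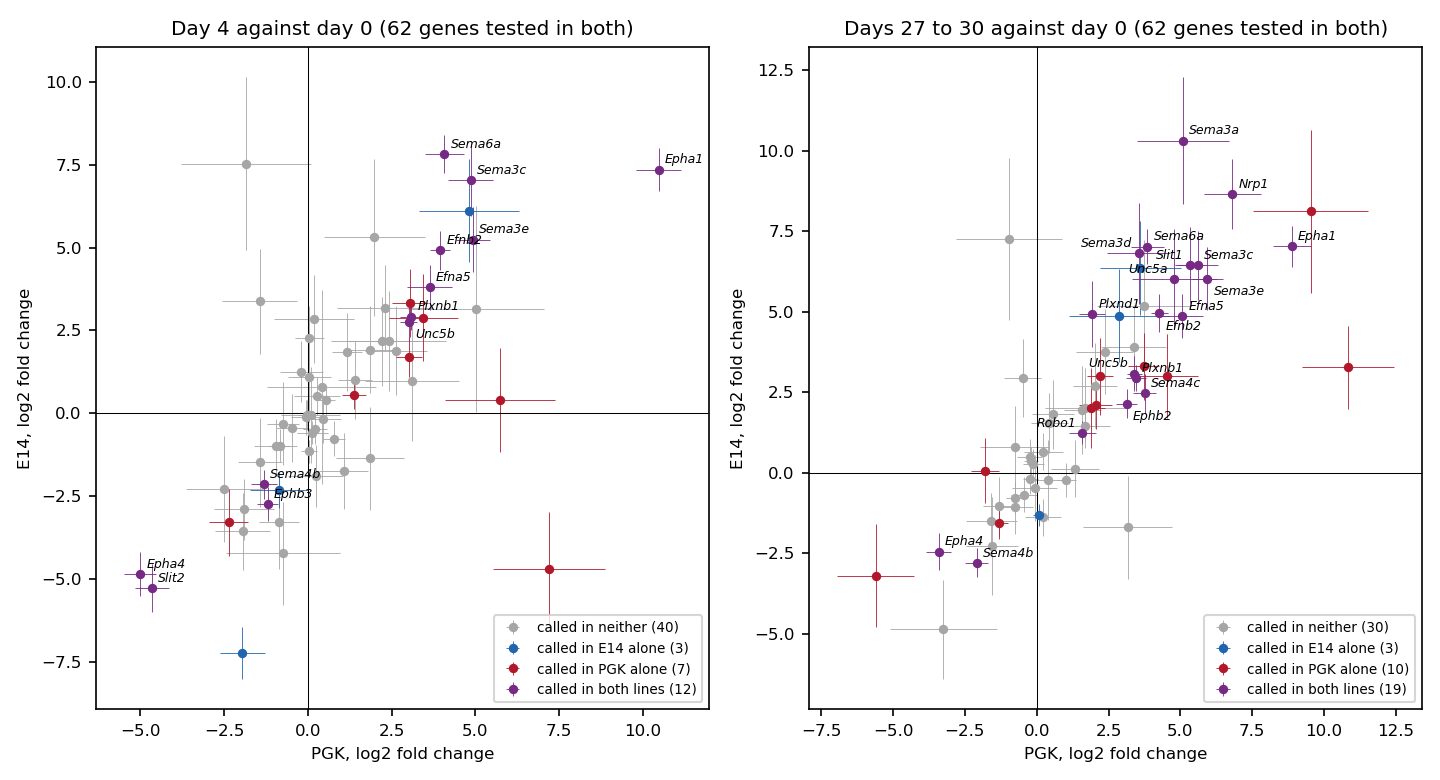
Log2 fold change against day 0 in PGK (x axis) and in E14 (y axis) for the 62 members tested in both lines, at day 4 (left) and at days 27 to 30 (right); points are fitted values, lines their standard errors, and colours give the lines in which a gene was called. The 12 genes called in both lines at day 4 and the 19 at days 27 to 30 are named, and each lies on the same side of 0 in both lines.

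Per length, the order of the families' genes changed with the state. Levels here are RPKM, which is CPM per kilobase of merged exons, as mean ± SD with n = 2. At day 0 Plxnb2, a plexin for class 4 semaphorins, led in PGK with 47.7 ± 4.64 and in E14 with 56.3 ± 18.6. In PGK it was followed by Plxna1, a partner of neuropilins (31.1 ± 8.58), Epha4, a receptor for both ephrin classes (30.6 ± 17.9), and Epha2, which binds ephrin-A ligands (29.6 ± 7.93), whose spreads overlap. In E14 it was followed by Ephb4, the receptor of ephrin-B2, with 41.1 ± 16.3, then Epha4 with 27.3 ± 3.81 and Epha2 with 24.6 ± 1.05, and neighbours in that order overlap in spread. At day 4 in PGK, Plxna1 and Epha1 led with 47.5 ± 11.5 and 47 ± 25.6, which do not differ beyond their spread. In E14 at day 10 Epha1 was first with 50.3 ± 15.8, beside Plxnb2 with 47.4 ± 39.8. At days 27 to 30 the netrin receptor Unc5b led in both lines, with 37.2 ± 4.71 in PGK and 33.2 ± 3.41 in E14, followed by Plxnb2 with 29.8 ± 1.75 and 32.7 ± 7.11. With the longest transcript as the length, Plxnb2 and not Unc5b was first in E14 at that stage.

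**Figure D3:**
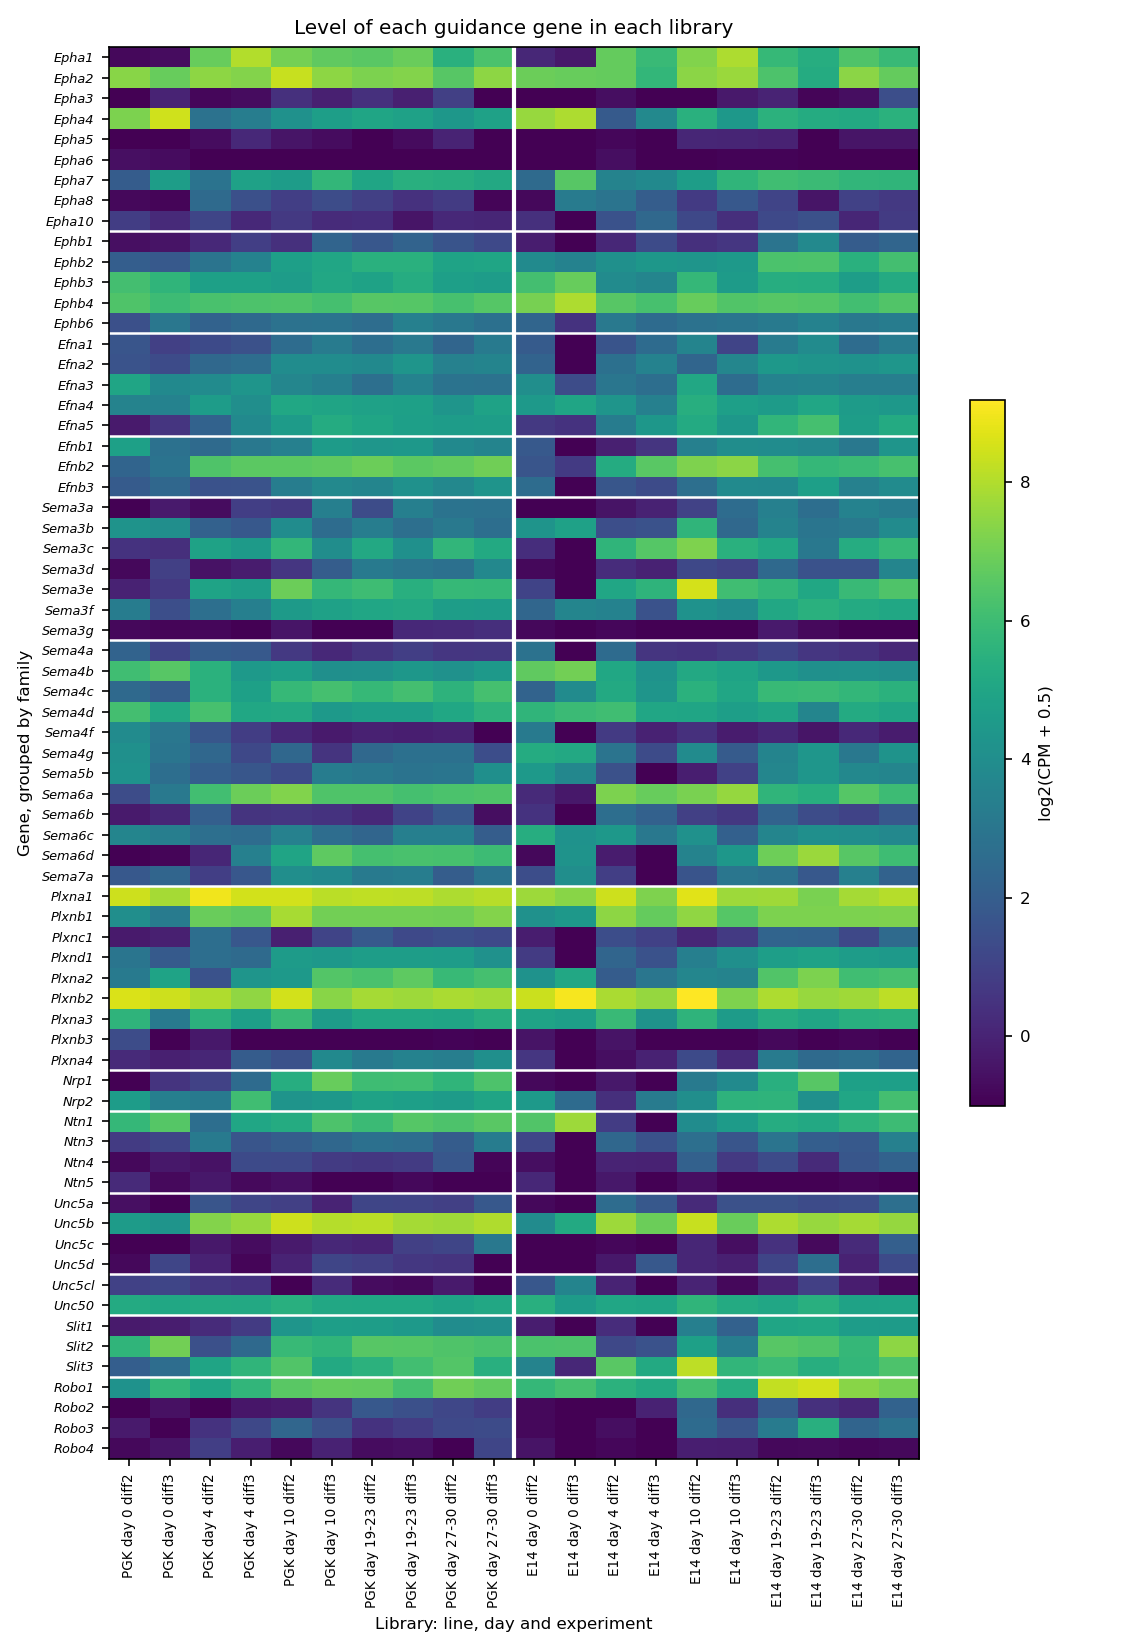
Level of each of the 69 genes (rows, grouped by family) in each of the 20 libraries (columns, by line, day and experiment), as log2(CPM + 0.5). Epha1, Efnb2, Unc5b, Sema3e, Sema6a and Plxnb1 are brighter at day 4 than at day 0 in both lines, and Plxna1 and Plxnb2 are bright in every library.

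Among the Eph receptors Epha1 rose and Epha4 fell in both lines, and Epha2 was not called in any comparison within a line. Epha1, a receptor for ephrin-A ligands, had 0.0812 and 0.14 CPM in the diff2 and diff3 libraries of PGK at day 0, and 113 and 255 at day 4. It stayed at 134 and 103 at day 10, 94.3 and 116 at days 19 to 23, and 44.1 and 78.9 at days 27 to 30. The E14 libraries gave 0.597 and 0.296 CPM at day 0, 109 and 58.9 at day 4, 154 and 241 at day 10, 56.1 and 40 at days 19 to 23, and 82 and 57.1 at days 27 to 30. Every later library was thus above every day 0 library. The fitted log2 change at day 4 was 10.48 ± 0.67 (SE) in PGK (adjusted p 2.54e-05) and 7.35 ± 0.64 in E14 (adjusted p 0.000345). Both PGK day 0 libraries together held 4 counts, which puts the ratio of summed counts at 1681 with a 95% interval from 656 to 6170 (exact, counting error only). Its level at days 27 to 30 against day 4 in PGK gave -1.60 ± 0.40 with an adjusted p of 0.0664, and -1.58 with 0.0221 with the experiment as a block (0.00486 to 0.23 over 12 alternatives).

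Epha1 shares 236 of its 3928 exon bases (6.01%) with Zyx on the opposite strand, and the use of strand in counting is not given in the sources used here. Zyx, an adhesion protein gene, measured 8.69 and 8 CPM in PGK at day 0 and 100 and 142 at day 4, and 5.52 and 0 against 132 and 72.8 in E14. Both genes thus moved the same way. The part of Zyx reads in the counts of Epha1 was not tested.

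Epha4 was the Eph gene that fell most. In PGK it had 144 and 348 CPM at day 0 and 6.59 and 9.45 at day 4, and in E14 198 and 241 against 3.24 and 13.4. The fitted log2 change was -5.00 ± 0.48 in PGK (adjusted p 0.000165) and -4.84 ± 0.66 in E14 (adjusted p 0.00171). Later levels lay between these: 17.2 and 25.6 at day 10, 31.1 and 28.2 at days 19 to 23 and 20.7 and 28.3 at days 27 to 30 in PGK, and 44.2 and 21.3, 46.8 and 38.2, and 35.7 and 44.6 in E14. At days 27 to 30 Epha4 was still below day 0, by -3.41 ± 0.44 in PGK (adjusted p 0.00047) and -2.45 ± 0.58 in E14 (adjusted p 0.0197). The late E14 call ran from 6.74e-05 to 0.14 over 12 alternatives, and passed 0.05 without the diff2 or the diff3 library of days 27 to 30 (0.14 and 0.109). The rise of Epha4 from day 4 to days 27 to 30 in PGK, 1.59 ± 0.42, had an adjusted p of 0.0806, and of 0.0189 with the experiment as a block (0.00775 to 0.395 over 12 alternatives).

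The B-class receptors moved in opposite directions. Ephb2 rose in PGK from 3.57 and 3.09 CPM at day 0 to 7.01 and 11 at day 4, 26.2 and 32.6 at day 10, 43.3 and 44.3 at days 19 to 23 and 29.9 and 31.7 at days 27 to 30. In E14 it began higher, with 14.3 and 11, and reached 79.1 and 79.6 at days 19 to 23 and 44 and 69.4 at days 27 to 30. The change at day 4 in PGK was 1.38 ± 0.35 (adjusted p 0.0246, in a range from 0.00177 to 0.165), a call lost without the diff3 library of day 0 (0.0756) or of day 4 (0.165). The late change was 3.13 ± 0.37 in PGK (adjusted p 0.000261) and 2.14 ± 0.45 in E14 (adjusted p 0.0119, which became 0.13 without the diff3 library of days 27 to 30, in a range from 2.94e-06). Ephb3, a receptor of epithelial boundaries, had 70.1 and 49.9 CPM at day 0 and 27.1 and 27.3 at day 4 in PGK, and 71 and 113 against 14.7 and 11.9 in E14. Its change at day 4 was -1.20 ± 0.31 in PGK (adjusted p 0.0247) and -2.74 ± 0.51 in E14 (adjusted p 0.00822). Over 12 alternatives these ran from 0.00138 to 0.115 and from 6.55e-06 to 0.0807. The PGK call was lost without the diff2 library of day 0 (0.115), the diff2 library of day 4 (0.115) or the diff3 library of day 4 (0.113), and the E14 call without either library of day 4 (0.055 and 0.0807). At days 27 to 30 Ephb3 was lower in PGK by -1.33 ± 0.31 (adjusted p 0.0111, in a range from 0.00019 to 0.0733), and lost that call without the diff2 library of day 0 (0.0556) or either late library (0.0504 and 0.0733).

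The other Eph receptors gave 2 calls, Ephb4 and Epha8. Epha2, the Eph gene with the highest mean CPM, had 91.7 to 323 CPM over the PGK libraries and 37.7 to 202 over those of E14, with a smallest adjusted p of 0.443 over the 12 comparisons. Epha7 had a median of 33.1 CPM and ranged from 3.41 to 93.3. Its day 0 libraries differed between experiments, with 3.41 and 24.8 CPM in PGK and 5.3 and 93.3 in E14. Ephb4 ran from 62.6 to 92.9 CPM in PGK. In E14 it had 137 and 244 CPM at day 0 and 67.4 and 84.9 at days 27 to 30, a change of -1.31 ± 0.35 (adjusted p 0.0323) that passed 0.05 without the diff3 library of day 0 (0.121) or without the diff2 or diff3 library of days 27 to 30 (0.251 and 0.167), in a range from 0.000315. Epha8 had 0.0812 and 0.0468 CPM in PGK at day 0, which is 2 counts in all, and 5.26 and 2.28 at day 4, a ratio of summed counts of 58.3 (95% interval 15.8 to 486) with an adjusted p of 0.0403. That call was lost without any 1 of the 4 libraries compared (0.0727 to 0.148), in a range from 0.00227 to 0.294. In E14 its day 0 libraries gave 0.0746 and 8.88 CPM. Epha3, Epha5, Epha6 and Epha10 did not exceed 4.95 CPM in any library. Ephb1 and Ephb6 did not exceed 13.4. With the experiment as a block Ephb1 was called late in PGK, with 3.55 and an adjusted p of 0.0432, against 3.37 and 0.0518 without it (0.0123 to 0.186 over 12 alternatives).

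Of the ligands, ephrin-B2 and ephrin-A5 rose in both lines and stayed above day 0 in every later library. Efnb2, whose protein binds Ephb4 and Epha4, had 4.38 and 6.78 CPM in PGK at day 0 and 83.7 and 98.6 at day 4, then 98 and 103, 119 and 98.6, and 105 and 125 at the later stages. In E14 it had 2.76 and 1.18 CPM at day 0, 37.9 and 94 at day 4, 147 and 169 at day 10, 72.5 and 54.9 at days 19 to 23 and 61.6 and 74.9 at days 27 to 30. No later library overlapped day 0. Its change at day 4 was 3.95 ± 0.29 in PGK (adjusted p 4.86e-05) and 4.92 ± 0.59 in E14 (adjusted p 0.000916). At days 27 to 30 it was 4.27 ± 0.29 (adjusted p 2.17e-05, the smallest of any member) and 4.95 ± 0.59 (adjusted p 0.000709). Efna5, an ephrin known from retinal maps, went from 0.325 and 0.982 CPM to 4.14 and 13.7 at day 4 and 24.1 and 25 at days 27 to 30 in PGK, and from 1.12 and 0.888 to 9.13 and 20.3 and then 25.2 and 36.8 in E14. Its late change was 5.06 ± 0.71 in PGK (adjusted p 0.000743) and 4.87 ± 0.69 in E14 (adjusted p 0.0016).

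Efna2 rose in PGK alone by the test, from 2.52 and 2.01 CPM at day 0 to 10.6 and 11.6 at days 27 to 30, a change of 2.21 ± 0.45 (adjusted p 0.00563, and 0.0844 in the fit of both lines, in a range from 1.97e-06). The E14 libraries had 4.18 and 0 CPM at day 0 and 17.7 and 20.1 late, and the difference between the lines' changes was not called. Of the remaining ligands 2 were called, both in PGK. Efnb3, with 3.25 and 4.77 CPM at day 0 and 13.1 and 18.7 late, was higher by 1.90 ± 0.48 (adjusted p 0.017). Efna3 had 31.2 and 13.9 against 6.91 and 6.75 CPM and was lower, by -1.80 ± 0.50 (adjusted p 0.0257). Both calls were lost without the diff2 library of day 0 (0.0802 and 0.179) or the diff3 library of days 27 to 30 (0.0947 and 0.118), and that of Efna3 also without the diff2 library of days 27 to 30 (0.0952); over 12 alternatives they ran from 0.000452 to 0.157 and from 0.00151 to 0.179. The change of Efnb3 from day 4 to day 10 in PGK, 2.15, had an adjusted p of 0.0655, and of 0.0438 with the experiment as a block (0.00044 to 0.49). Efna1, Efna3 and Efna4 lie close together on chromosome 3, between 89271733 and 89338028. Efna1 and Efna4 were not called in any comparison within a line, nor was the X-linked Efnb1, with 27.4 and 6.55 CPM in PGK at day 0 and 3.06 and 0 in E14.

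Of the secreted semaphorins, 5 of 7 tested rose in PGK and 4 of 6 in E14 at days 27 to 30, against 13% and 8.73% of all genes, and none fell. Sema3e, the ligand of Plxnd1 that steers vessels, had 0.487 and 1.12 CPM in PGK at day 0, 29.7 and 24.8 at day 4, 119 and 54.7 at day 10 and 55.6 and 55 at days 27 to 30. In E14 it had 1.57 and 0 CPM at day 0, 31.8 and 49.5 at day 4, 374 and 65.9 at day 10 and 59.1 and 83.5 late. The diff2 library of day 10 stood far above its partner. The change of Sema3e at day 4 was 4.93 ± 0.51 in PGK (adjusted p 0.000232) and 5.24 ± 0.98 in E14 (adjusted p 0.00832, in a range from 1.91e-07 to 0.0559, the highest without the diff3 library of day 4). Sema3c, a ligand for neuropilins and plexins in the heart outflow tract, went from 0.893 and 0.795 CPM to 28.4 and 23.1 at day 4 in PGK, and from 0.746 and 0 to 50.9 and 89.6 in E14. Its change was 4.86 ± 0.67 (adjusted p 0.00109) and 7.04 ± 1.08 (adjusted p 0.0031), and at days 27 to 30 it had 51.3 and 35.7 CPM in PGK and 38.6 and 56.2 in E14. In the same diff2 day 10 library of E14 it had 149 CPM against 43.9 in the diff3 library.

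Sema3a and Sema3d came up later and at lower levels. Sema3a, the founding repellent of the class, had 0 and 0.327 CPM in PGK at day 0, 0.14 and 1.37 at day 4 and 6.83 and 6.75 at days 27 to 30. In E14 it had no counts at day 0, 0.221 and 0.495 CPM at day 4 and 10.8 and 9.2 late, which is at least 55.9-fold higher than 3 counts over both day 0 libraries (adjusted p 0.0093). In PGK the late change was 5.08 ± 1.60 (adjusted p 0.0425, lost without the diff2 library of day 0 with 0.145 or the diff2 or diff3 library of days 27 to 30 with 0.0799 and 0.0964, in a range from 0.00145). Sema3d had 0.0812 and 1.4 against 6.28 and 13 CPM in PGK, 3.55 ± 1.10 (adjusted p 0.0403). The E14 libraries held 0.0746 and 0 CPM at day 0, which is 1 count in all, and 2.5 and 12.1 late, a ratio of summed counts of 129 (95% interval 23.1 to 5129) with an adjusted p of 0.018. The PGK call of Sema3d passed 0.05 without the diff2 library of day 0 (0.107) or either library of days 27 to 30 (0.0508 and 0.153), in a range from 0.00283. Against day 4 its late change in PGK, 4.99, had an adjusted p of 0.0606, and of 0.0227 with the experiment as a block (0.000151 to 0.314). Its E14 call against day 0 did so without the diff3 library of days 27 to 30 (0.141), in a range from 0.000257.

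Sema3a, Sema3c, Sema3d and Sema3e, the 4 members of the class that rose in both lines late, all lie on chromosome 5, in the order Sema3d (from 12383385), Sema3a (from 13125414), Sema3e (from 14025276) and Sema3c (17574281 to 17730268). The other members, Sema3b and Sema3f on chromosome 9 and Sema3g on chromosome 14, were not called in both lines. Sema3f, a ligand of Nrp2, rose in PGK from 9.25 and 2.24 CPM to 25.1 and 24.6 late, 2.05 ± 0.58 (adjusted p 0.0268). That call was lost without the diff3 library of day 0 (0.0555) or the diff2 or diff3 library of days 27 to 30 (0.0741 and 0.0884), in a range from 7.55e-05. Sema3b fell at day 4 in PGK, from 18.1 and 15.8 to 3.93 and 2.97 CPM, by -2.36 ± 0.58 (adjusted p 0.022, in a range from 0.000284 to 0.139), and that call was lost without the diff2 library of day 0 (0.0566) or either library of day 4 (0.0759 and 0.139). Sema3g did not exceed 0.802 CPM. The shared position of the 4 genes is a description, and no test of it was run.

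Membrane-bound semaphorins split into risers and fallers. Sema6a, a ligand of A-type plexins, went from 2.11 and 8.18 CPM at day 0 to 68.5 and 118 at day 4 and 78 and 83.5 at days 27 to 30 in PGK. In E14 it went from 0.671 and 0.296 to 146 and 113 and then 89.9 and 62.2. The change at day 4 was 4.08 ± 0.57 in PGK (adjusted p 0.00115) and 7.82 ± 0.56 in E14 (adjusted p 0.000159). Sema4c, a ligand of Plxnb2, had 5.03 and 3.51 CPM at day 0, 45.1 and 27.1 at day 4 and 48.1 and 72.7 late in PGK, a change of 3.02 ± 0.38 at day 4 (adjusted p 0.000603) and 3.75 ± 0.39 late (adjusted p 0.000145). The values in E14 were 4.18 and 14.5 CPM at day 0 and 52.8 and 44.8 late, a change of 2.46 ± 0.60 (adjusted p 0.0231) that was lost without the diff2 or diff3 library of days 27 to 30 (0.121 and 0.0917), in a range from 0.000941. Sema6d, another ligand of A-type plexins, came later. It had 0 and 0.0468 CPM in PGK at day 0, which is 1 count, then 0.561 and 10.2 at day 4, 30.3 and 102 at day 10, 72.9 and 76, and 75.1 and 62.9. Its change at day 4 had an adjusted p of 0.0161 (in a range from 2.89e-06 to 0.155), lost without either library of day 0 (0.155 for each) or the diff3 library of day 4 (0.144). Its late change in PGK had an adjusted p of 0.000992 and a ratio of summed counts of 2338 (95% interval 419 to 92372). Against day 4 the late change was 3.62 with an adjusted p of 0.0794, and 4.17 with 0.0416 with the experiment as a block (0.000107 to 0.278). E14 gave 0.0746 and 18.4 CPM at day 0, 0.368 and 0 at day 4 and 93.4 and 65.4 late. The diff3 library of E14 at day 0 stood above its partner and above both day 4 libraries, and no E14 change of Sema6d was called.

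Sema4b and Sema4f fell. Sema4b, a semaphorin with a PDZ-binding tail, had 66.7 and 92.3 CPM in PGK at day 0, 45.2 and 21.9 at day 4 and 17.5 and 22 at days 27 to 30. For E14 they were 104 and 129, 32.8 and 17.8, and 17.5 and 15.8. Its late change was -2.09 ± 0.40 in PGK (adjusted p 0.00439) and -2.80 ± 0.45 in E14 (adjusted p 0.0032, in a range from 1.06e-10 to 0.0536, the highest without the diff3 library of days 27 to 30). At day 4 the change was -1.31 ± 0.39 (adjusted p 0.0491) and -2.14 ± 0.44 (adjusted p 0.0134). Those calls were lost without the diff2 or diff3 library of day 0 (0.05 and 0.17) or the diff3 library of day 4 (0.275) in PGK, and without the diff3 library of day 4 (0.0943) in E14, in ranges from 0.00168 and 3.86e-06. Sema4f had 14.4 and 7.67 CPM at day 0 and 0.461 and 0 late in PGK, by -5.61 ± 1.34 (adjusted p 0.0131, in a range from 1.26e-06 to 0.0717, with 0.058 without the diff2 library of day 0). Its E14 levels were 8.58 and 0 CPM at day 0 and 0.625 and 0.366 late. Sema4a, Sema4d, Sema4g, Sema5b, Sema6b, Sema6c and Sema7a were not called in any comparison within a line; of them Sema4d had the highest median, 32.9 CPM. With the experiment as a block Sema7a was called in PGK from day 4 to day 10, with 2.84 and an adjusted p of 0.0371, against 2.74 and 0.0634 without it (0.000241 to 0.374 over 12 alternatives).

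Among the plexins Plxnb1 rose at day 4 in both lines, and Plxnd1 rose in both by days 27 to 30. Plxnb1, the receptor of Sema4d, had 16 and 8.84 CPM at day 0 and 116 and 103 at day 4 in PGK, and 17.5 and 21 against 173 and 110 in E14. Its change was 3.09 ± 0.35 (adjusted p 0.000342) and 2.92 ± 0.40 (adjusted p 0.00169), and at days 27 to 30 it had 127 and 155 CPM in PGK and 146 and 147 in E14. Plxnd1, the receptor of Sema3e, rose later, with 7.22 and 3.18 CPM at day 0, 5.89 and 5.25 at day 4 and 24.3 and 17.5 late in PGK, and 1.19 and 0, 4.49 and 2.47, and 24.2 and 22.6 in E14. The late change was 1.93 ± 0.45 in PGK (adjusted p 0.0115) and 4.93 ± 1.04 in E14 (adjusted p 0.0127). Without the diff2 library of days 27 to 30 these became 0.0568 and 0.0582, in ranges from 0.000142 and 3.71e-09. From day 4 to day 10 in PGK the change of Plxnd1 was 1.97 ± 0.45 with an adjusted p of 0.0659, and of 0.0389 with the experiment as a block (0.000585 to 0.288 over 12 alternatives). From day 4 to days 27 to 30 it was 1.89 ± 0.45 with 0.0573, and 0.0335 with the block (0.000785 to 0.259).

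Plxna4 was called in PGK alone, with 0.649 and 0.421 CPM at day 0 and 9.72 and 16.2 late, 4.53 ± 1.08 (adjusted p 0.0129). That call was lost without the diff3 library of day 0 (0.0604) or of days 27 to 30 (0.0539), in a range from 3.52e-05. Plxna1 ran from 141 to 504 CPM and Plxnb2 from 149 to 583, and neither was called in any comparison within a line, nor was the X-linked Plxna3, with 8.51 to 59.3 CPM. Plxna2, a semaphorin receptor, had 17.8 and 34.4 CPM in E14 at day 0 and 3.39 and 7.42 at day 4, -2.32 ± 0.54 (adjusted p 0.0237, in a range from 0.000811 to 0.146, the highest without the diff2 library of day 4). The block added 4 calls of Plxna2. Against day 0 its change at days 27 to 30 in PGK was 2.02 with an adjusted p of 0.027 (1.67 and 0.192 without the block, 0.0107 to 0.593 over 12 alternatives), and in E14 1.51 with 0.0496 (1.45 and 0.0772, 0.0356 to 0.304). In PGK from day 4 to days 27 to 30 it was 3.06 with 0.0231 (2.53 and 0.179, 0.00271 to 0.549), and from day 10 to days 19 to 23 in E14 3.18 with 0.0491 (3.25 and 0.0865, 1.35e-06 to 1). With the experiment as a block Plxnb2 was lower in PGK at day 4, by -0.85 (adjusted p 0.0393 against 0.111 without the block, 0.00172 to 0.425 over 12 alternatives), and at days 27 to 30, by -0.75 (0.0448 against 0.108, 0.00495 to 0.321). Plxnc1 was called at day 4 in PGK with 3.45 ± 1.03 (adjusted p 0.049), from 0.325 and 0.421 to 5.89 and 2.88 CPM. Its adjusted p was 0.0582 with the block, and the call was lost without any 1 of the 4 libraries compared (0.0895 to 0.198), in a range from 0.00301 to 0.359.

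Of the neuropilins, Nrp1 rose after day 4 and Nrp2 was not called in any comparison within a line. Nrp1, a co-receptor for class 3 semaphorins and VEGF, had 0 and 0.935 CPM in PGK at day 0, 1.54 and 5.43 at day 4, 39.8 and 113 at day 10, 64.4 and 66.4 at days 19 to 23 and 50.3 and 80 at days 27 to 30. E14 libraries measured 0.0746 and 0, 0.295 and 0, 8.32 and 14.3, 42.7 and 92.3, and 27.4 and 26.5. Every library from day 10 on was above every earlier one. The late change against day 0 was 6.81 (SE 1) in PGK (adjusted p 0.000962). In E14 the day 0 libraries held 1 count, and the ratio of summed counts was 451 (95% interval 80.9 to 17841) with an adjusted p of 0.000829. From day 4 to day 10 Nrp1 rose in PGK by 4.40 ± 0.85 (adjusted p 0.0361, in a range from 6.86e-05 to 0.206), a call lost without the diff2 library of day 4 (0.176) or the diff3 library of day 10 (0.199). In E14 the same step was 5.56 ± 0.93 with an adjusted p of 0.0515. At day 4 in PGK its change of 2.64 ± 0.93 had an adjusted p of 0.0877, and of 0.0257 with the block (0.00199 to 0.5 over 12 alternatives). Nrp2 had 8.63 and 65.9 CPM in the day 4 libraries of PGK, a range from 0.81 to 69.6 over all libraries, and a smallest adjusted p of 0.286.

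**Figure D4:**
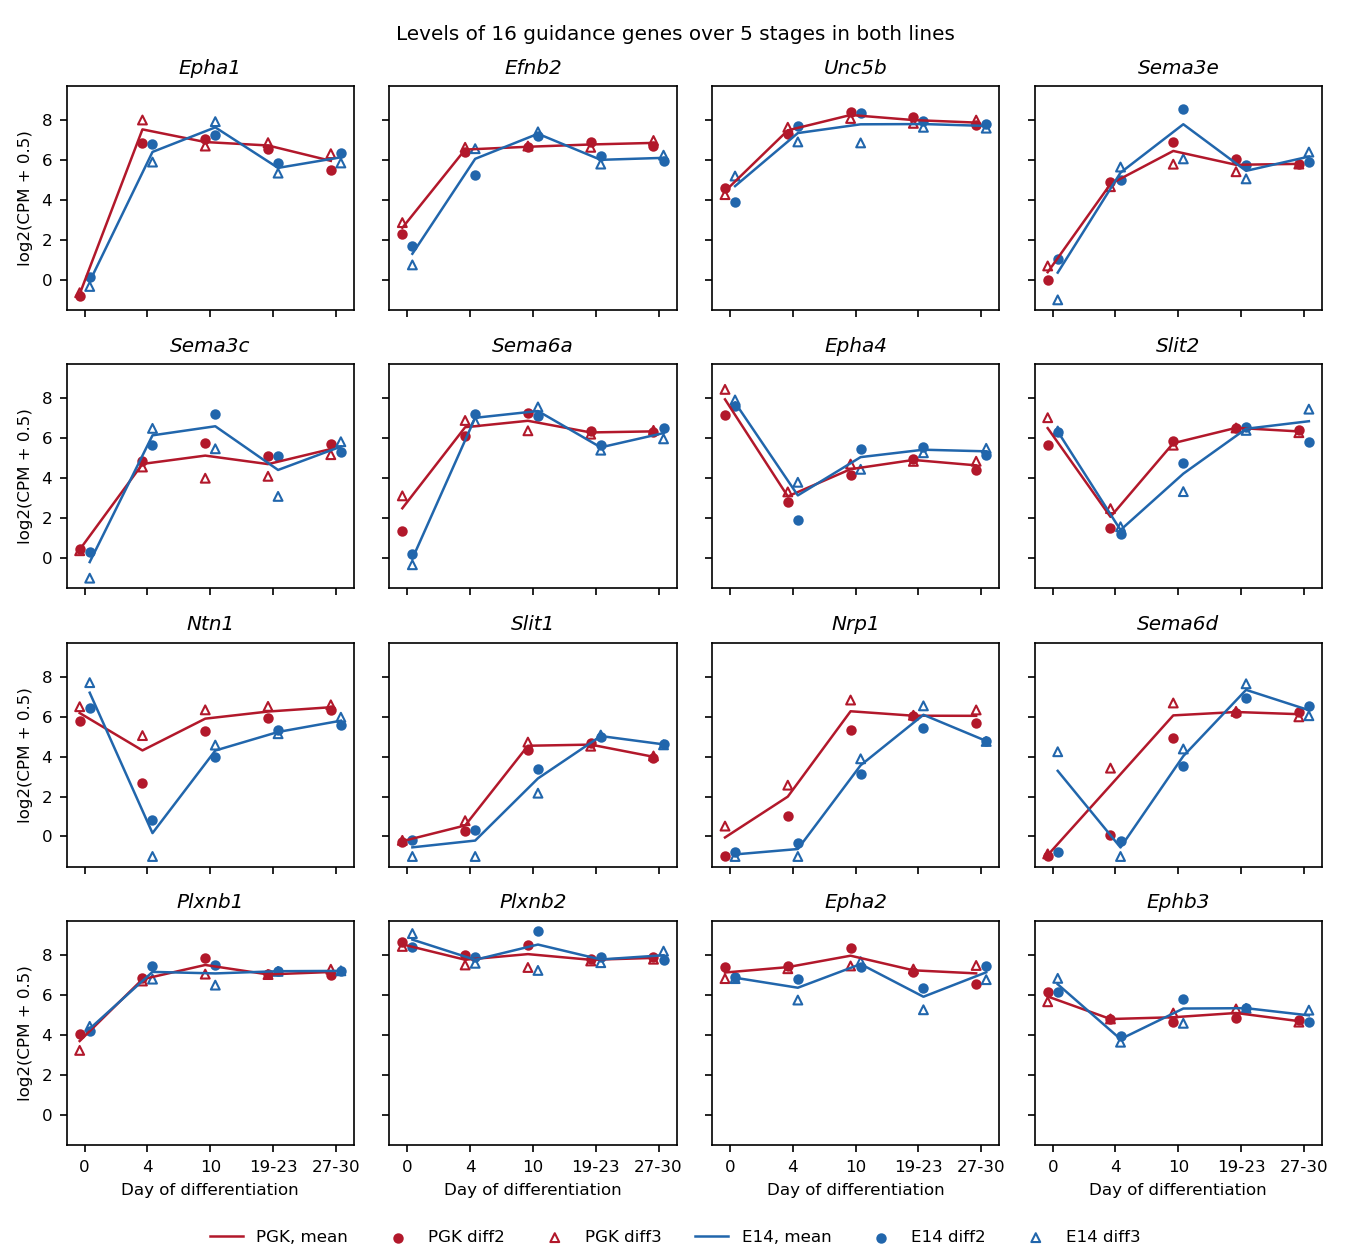
Levels of 16 guidance genes (panels) by day of differentiation (x axis) as log2(CPM + 0.5) (y axis); circles are diff2 and triangles diff3 libraries, lines join the means of PGK (red) and E14 (blue). Epha1 climbs from at most 0.597 CPM to at least 40 CPM in every later library, Epha4 drops and returns in part, Slit2 dips at day 4, and Slit1, Nrp1 and Sema6d climb after day 4.

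For the netrin system, the receptor Unc5b rose while netrin-1 dipped at day 4. Unc5b had 23.5 and 18.7 CPM in PGK at day 0, 158 and 198 at day 4, 338 and 269 at day 10 and 212 and 254 at days 27 to 30. The E14 line had 14.5 and 36.1, 205 and 119, 324 and 115, and 223 and 192. Its change at day 4 was 3.01 ± 0.25 in PGK (adjusted p 7.8e-05) and 2.76 ± 0.55 in E14 (adjusted p 0.0115, in a range from 0.000169 to 0.0757, the highest without the diff2 library of day 4). At days 27 to 30 it was 3.39 ± 0.26 (adjusted p 2.89e-05) and 3.08 ± 0.55 (adjusted p 0.00576). Unc5a, a neuronal receptor of the family, did not exceed 6.11 CPM and rose late in both lines, with adjusted p of 0.0408 and 0.0286; the PGK call was lost without the diff3 library of day 0 (0.137) or of days 27 to 30 (0.103), and the E14 call without either library of days 27 to 30 (0.0792 and 0.167), in ranges from 0.00295 and 0.00141. Unc5a was also called at day 4 in E14, with 5.6 and 2.97 CPM (adjusted p 0.0341, in a range from 0.0016 to 0.112), and lost that call without the diff3 library of day 0 (0.0518) or either library of day 4 (0.112 and 0.0828). The day 0 libraries held 2 counts of Unc5a in PGK and 1 in E14. Its late ratios of summed counts were 36.3 (95% interval 9.77 to 304) in PGK and 72.9 (12.9 to 2893) in E14. The E14 ratio at day 4 was 88.2 (15.4 to 3526). Unc5c had no counts in any day 0 library. In PGK it had 1.68 and 8.02 CPM late, at least 54.5-fold higher than 3 counts over both day 0 libraries (adjusted p 0.00833). E14 had 0.673 and 3.7 CPM late, at least 12.2-fold higher, with an adjusted p of 0.0625. Unc5d did not exceed 5.93 CPM.

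Ntn1, the main attractant of the family, had 84.8 and 207 CPM in E14 at day 0, 1.25 and 0 at day 4, 15.1 and 23.3 at day 10 and 47.9 and 62 at days 27 to 30. Its fall at day 4 was -7.22 ± 0.79 (adjusted p 0.000743) and its rise from day 4 to days 27 to 30 was 5.83 ± 0.76 (adjusted p 0.0133); both comparisons use the same day 4 libraries, of which diff3 is the shallowest of all. The rise was lost without the diff2 (0.184) or the diff3 library of day 4 (0.073), in a range from 2.42e-11. From day 4 to day 10 it was 4.37 ± 0.73 with an adjusted p of 0.0515, and 0.049 with the block (5.55e-06 to 0.33 over 12 alternatives). In PGK Ntn1 had 54.1 and 89.6 CPM at day 0, 5.96 and 32.6 at day 4 and 80.3 and 95.6 late. The PGK fall at day 4, -1.95 ± 0.66, had an adjusted p of 0.0761, and of 0.00736 with the block (0.00294 to 0.282), and the rise from day 4 to days 27 to 30, 2.16 ± 0.66, had 0.12, and 0.0147 with the block (0.00787 to 0.366). The difference between the lines' changes at day 4 was 5.26 ± 1.06 (adjusted p 0.0747, and 0.0395 with the block, 7.12e-05 to 0.312 over 14 alternatives). Ntn3 and Ntn4 did not exceed 10.2 CPM. Ntn4 rose late in E14 with an adjusted p of 0.0485, and of 0.0536 with the block. The E14 day 0 libraries held 2 counts of it, a ratio of summed counts of 29.2 (95% interval 7.96 to 243). The call was lost without the diff3 library of day 0 or either library of days 27 to 30, in a range from 0.0089.

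The Slits took 3 different courses. Slit2, a midline repellent, had 50.7 and 130 CPM in PGK at day 0, 2.31 and 5.07 at day 4, 57 and 49.8 at day 10, 91.6 and 90.9 at days 19 to 23 and 84.1 and 77.1 at days 27 to 30. In the E14 libraries it had 79.4 and 81.7, 1.84 and 2.47, 26.9 and 9.55, 93.1 and 83.6, and 54.9 and 175. The day 4 libraries were the lowest in both lines. The fall at day 4 was -4.65 ± 0.50 in PGK (adjusted p 0.000294) and -5.27 ± 0.72 in E14 (adjusted p 0.00166). The rise from day 4 to days 27 to 30 was 4.40 ± 0.50 (adjusted p 0.00289) and 5.77 ± 0.73 (adjusted p 0.012), against the same day 4 libraries. The E14 rise was lost without the diff2 (0.323) or diff3 library (0.102) of day 4, in a range from 5.8e-12. In PGK the rise was called by day 10 already, with 3.80 ± 0.49 (adjusted p 0.00769).

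Slit1, known from the forebrain and spinal cord midline, had 0.325 and 0.374 CPM in PGK at day 0, 0.701 and 1.23 at day 4, 19.6 and 25.9 at day 10 and 14.9 and 15.8 at days 27 to 30, with a change of 4.50 ± 0.49 from day 4 to day 10 (adjusted p 0.00316) and 5.34 ± 0.53 from day 0 to days 27 to 30 (adjusted p 0.000117). The E14 values were 0.373 and 0 CPM at day 0, 0.736 and 0 at day 4, 9.98 and 3.99 at day 10 and 24.3 and 23.5 late, a change of 6.45 ± 1.17 from day 0 (adjusted p 0.00595). Slit3 rose at once in PGK, from 3.65 and 5.66 CPM to 30.8 and 50.6 at day 4 and 88.2 and 42.8 late, with 3.05 ± 0.53 at day 4 (adjusted p 0.0037) and 3.72 ± 0.54 late (adjusted p 0.000912). The E14 libraries held 11.4 and 0.592 CPM at day 0 and 96.6 and 35.6 at day 4, 3.33 ± 1.03 with an adjusted p of 0.0702, which was 0.0247 with the block (0.000669 to 0.293 over 12 alternatives). Late it was 3.30 ± 1.03 with 0.0572, and 0.0144 with the block (0.000136 to 0.201). Its diff2 library of day 10 had 287 CPM against 51 in diff3, the library in which Sema3e and Sema3c were high too.

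Robo1, a Slit receptor and the highest of the Robo genes here, had 17.9 and 53.8 CPM at day 0 and 125 and 105 at days 27 to 30 in PGK, 1.59 ± 0.46 (adjusted p 0.0311). The values in E14 were 54 and 72.9 at day 0, 70.8 and 40.2 at day 10, 301 and 358 at days 19 to 23 and 165 and 133 late, a change of 1.24 ± 0.35 against day 0 (adjusted p 0.0412). The step from day 10 to days 19 to 23 in E14 was 2.55 ± 0.36 with an adjusted p of 0.0539, and 0.0423 with the block (1.97e-07 to 0.503 over 12 alternatives). The PGK call was lost without the diff2 library of day 0 (0.0932) or either library of days 27 to 30 (0.107 and 0.0845), and the E14 call without any 1 of the 4 libraries compared (0.0546 to 0.26), in ranges from 0.00219 and 0.00651. Robo3, which lowers Slit sensitivity of crossing axons, had 0.0746 and 0 CPM in E14 at day 0 and 4.42 and 6.39 late (adjusted p 0.0175, in a range from 0.000361 to 0.0754, and lost without the diff2 or diff3 library of days 27 to 30, with 0.0568 and 0.0754). Both E14 day 0 libraries together held 1 count of Robo3, and the late ratio of summed counts was 92.1 (95% interval 16.4 to 3653). In its diff3 library of days 19 to 23 Robo3 reached 42.4. Robo2 and Robo4 did not exceed 4.99 CPM.

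After day 4 few changes of single steps were called. From day 4 to day 10, 4 members rose in PGK (6.06% of 66 against 1.51% of all genes, 1.05% higher): Slit1, Slit2, Nrp1 and Ephb2. With the experiment as a block 7 rose. The count was 2 without the diff2 library of day 4 or without the diff3 library of day 10. In E14 the same step gave no call (0.186% of all genes), with 17 members at an unadjusted p under 0.05, 1 call with the block and 7 calls by DESeq2. Against days 27 to 30, day 4 differed in 5 members in PGK (7.58% against 2.74% of all genes, 1.71% higher), the same 4 with Efnb3, and 12 with the block. That count was 3 without the diff2 library of day 4, 2 without the diff2 and 2 without the diff3 library of days 27 to 30. In E14, 4 rose over the same span (6.45% against 0.565% of all genes, 0.531% higher): Slit2, Ntn1, Nrp1 and Plxna2. None remained called without the diff2 or the diff3 library of day 4, and 2 without the diff2 library of days 27 to 30. Plxna2 reached 65.9 and 74.4 CPM there, from the 3.39 and 7.42 of day 4. The steps from day 10 to days 19 to 23 and on to days 27 to 30 gave no call in either line, and none among all genes (0%) by edgeR. At an unadjusted p under 0.05 they gave 0 and 0 members in PGK and 16 and 3 in E14. DESeq2 gave 0 and 0 in PGK and 9 and 0 in E14, and the block 2 in the first E14 step. Counts at an unadjusted p have no share of all genes beside them here, and are not read as a result about the members.

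The lines differed in 2 members at day 0, of 67 tested (0.509% of all genes called, 0.286% higher and 0.222% lower in PGK). Sema6a was higher in PGK, with the 2.11 and 8.18 against 0.671 and 0.296 CPM given above, by 3.23 ± 0.67 (adjusted p 0.0421). Ephb2 was lower in PGK by -1.88 ± 0.40 (adjusted p 0.047). With the experiment as a block the adjusted p were 0.139 and 0.112 and no member was called. Over 10 alternatives they ran from 0.000485 to 0.236 and from 1.73e-05 to 0.191. Without the diff3 library of PGK at day 0 or the diff3 library of E14 at day 0 no member was called, without the diff2 library of PGK 1 was, and without the diff2 library of E14, which leaves the shallow one, 16 were. At the later stages no member differed (0.165%, 0.0636%, 0.0636% and 0.0572% of all genes). At an unadjusted p under 0.05 there were 12, 7, 5 and 2 members, and by DESeq2 3, 0, 2 and 0. Unadjusted counts, here and below, have no share of all genes beside them and are not read as a result about the members. The change from day 0 differed between the lines for no member, at day 4 (0.0763% of all genes, 11 members unadjusted, 3 by DESeq2, 1 with the block) or at days 27 to 30 (0.0509%, 7 and 2). Without the diff2 library of E14 at day 0 these counts were 10 and 9, and those of E14 against day 0 were 32 at day 4 and 36 at days 27 to 30. The count for E14 at days 27 to 30 was 14 without the diff2 and 12 without the diff3 library of that stage.

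Partners of the families were read from 7 lists, whose counts stand beside the shares of all genes tested that rose, 8.35% in PGK and 5.16% in E14 at day 4 and 13% and 8.73% at days 27 to 30. A count of 2 of 18 in E14 or of 2 of 12 in PGK is near those late shares. The shares of all genes tested that fell were 6.44% in PGK and 4.4% in E14 at day 4, and 12% and 4.99% at days 27 to 30. Of 11 genes listed here as semaphorin co-receptors, 5 rose in PGK at day 4, and 2 of 10 tested rose and 1 fell in E14. Late, 5 rose and 3 fell in PGK, and 3 rose and 1 fell in E14. The list also holds Plxdc2, whose role as a co-receptor is not taken as given. Nrcam, an adhesion molecule that pairs with neuropilins, had 0.487 and 1.31 CPM in PGK at day 0 and 50.1 and 124 at day 4. Its change was 6.45 ± 0.62 (adjusted p 0.000167). In E14 it went from 1.12 and 0 at day 0 to 37.3 and 80.2 at day 4, 6.25 ± 0.94 (adjusted p 0.0027). Plxdc2, a plexin domain protein, went in PGK from 0.893 and 1.82 CPM at day 0 to 45 and 49.3 at day 4. Its change was 5.01 ± 0.44 (adjusted p 0.000109), and L1cam rose in PGK at day 4 by 4.77 ± 0.70 (adjusted p 0.00151). Of 20 semaphorin and plexin mediators tested, 8 rose and 2 fell in PGK at days 27 to 30, and 5 rose and 1 fell in E14. The collapsin response mediators, which relay Sema3a signals to microtubules, led this list. Crmp1 went from 0.162 and 0.234 CPM at day 0 to 99.2 and 105 late in PGK, 8.83 ± 0.37 (adjusted p 2.02e-06), and from 0.82 and 0 to 81.6 and 96.5 in E14, 7.20 ± 1.05 (adjusted p 0.00189). Dpysl5 changed by 5.40 ± 0.38 (adjusted p 2.47e-05) and 4.85 ± 0.95 (adjusted p 0.00838), and Dpysl3 by 3.76 ± 0.36 (adjusted p 0.000105) and 3.63 ± 0.77 (adjusted p 0.0127).

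Of 18 Eph signalling adaptors, 4 rose late in PGK and 2 in E14, and none fell; Vav3, an exchange factor for Rac, rose by 5.66 ± 0.79 (adjusted p 0.000738) and 6.68 ± 1.02 (adjusted p 0.00242), and Grb10, an imprinted adaptor, by 2.68 ± 0.51 (adjusted p 0.00411) and 3.46 ± 0.34 (adjusted p 0.000307). Of 12 netrin and RGM partners, 2 rose and 1 fell late in PGK. Neo1, the netrin and RGM receptor neogenin, had 205 and 241 CPM at day 0 and 144 and 135 late, -0.75 ± 0.22 (adjusted p 0.0286), and Flrt3, a ligand of Unc5b, had 0.487 and 4.44 against 80.1 and 92.4, 4.97 ± 0.95 (adjusted p 0.00436). Flrt3 also rose late in E14, by 3.41 ± 0.61 (adjusted p 0.00579), the only 1 of 9 tested there. Of 11 Slit and Robo mediators, 1 rose and 2 fell late in PGK and 2 rose and 1 fell in E14: Gpc1, a heparan sulfate carrier, rose by 2.86 ± 0.24 (adjusted p 5.34e-05) and 1.84 ± 0.38 (adjusted p 0.0107), and Enah fell by 1.53 and 1.32 on the log2 scale (adjusted p 0.00285 and 0.0129). Of 10 cytoskeletal effectors, Pak1 alone was called late, in PGK, with 1.95 ± 0.34 (adjusted p 0.00257). Of 7 ectodomain proteases, Mmp14 rose late in both lines, by 4.49 ± 0.42 (adjusted p 8.88e-05) and 4.77 ± 0.92 (adjusted p 0.00786), and Mmp2 in PGK, by 3.81 ± 0.43 (adjusted p 0.000217). At day 4, 2 of the 7 proteases rose and 2 fell in PGK, and 1 rose in E14: Mmp14 and Mmp2 were higher in PGK by 3.35 ± 0.40 (adjusted p 0.000511) and 3.34 ± 0.42 (adjusted p 0.000641), and Furin and Adam10 lower by -1.16 ± 0.32 (adjusted p 0.0374) and -1.17 ± 0.34 (adjusted p 0.0439).

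Markers of other cell types moved over the same stages, and several guidance genes are also expressed by such cells. Summed CPM of 13 genes of fibroblasts and mesenchyme ran from 9.18 to 31.1 at day 0, 86.3 to 198 at day 4 and 348 to 558 at days 27 to 30. That of 11 endoderm genes ran from 17.5 to 26.5, 6.85 to 58.8 and 354 to 483, and that of 12 neural genes from 56.1 to 93.3, 279 to 697 and 505 to 595. For 9 primitive streak and mesoderm genes the ranges were 23 to 38.2, 26.7 to 915 and 291 to 328. Endothelial and trophoblast genes were lower at day 4 than at day 0, with 14.8 to 65.6 against 139 to 362 for 10 genes and 1.47 to 25 against 90.3 to 186 for 6 genes. At days 27 to 30 the endothelial sum was 211 to 273, within its day 0 range, and the trophoblast sum was 34.5 to 57.3. The endothelial sum joins genes that moved in opposite directions. In PGK at days 27 to 30 against day 0, Flt1 changed by 9.63 (adjusted p 0.0001) and Pecam1 by -7.46 (adjusted p 0.000255). Tek, Kdr and Vwf changed by -5.89, -4.68 and -3.14 (adjusted p 0.00899, 0.0483 and 0.0145). Emcn and Erg had no counts in PGK at day 0, nor Cdh5 and Emcn in E14. The part of these cells in the guidance genes' changes was not tested.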

How the data were processed

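Of the deposited tables, the raw ones hold whole-number counts per gene, per the file headers, and a second pair holds log2 values deposited by the authors after a variance-stabilizing transformation. The submitters' processing notes name CASAVA 1.8.2, Cuffdiff and DESeq2 and the build GRCm38 (mm10), with no roles. For the aligner, the annotation and the use of strand, the sources used here give nothing. From the counts, CPM (counts relative to the library total, on the usual CPM scale) and RPKM (CPM per kilobase of merged GENCODE M21 exons) were computed here. Genes were tested with edgeR 4.0.16 (R 4.3.3, limma 3.58.1): TMM scaling, its filter on low counts with a minimum of 10, the robust quasi-likelihood test and Benjamini-Hochberg adjustment over all genes tested, with a threshold of 0.05. Each line was fitted on its 10 libraries, and the lines were compared in a fit of all 20. The steps were tested on simulated data, in which every gene had the same spread between libraries. Genes not chosen to change had the same mean in every group. The real data differ in both, so the rates below need not hold for them. For day 4 against day 0, edgeR recovered 0 of 84 genes changed 2-fold in PGK, 16 of 59 changed 4-fold and 50 of 57 changed 16-fold. In E14 it recovered 0 of 59, 11 of 73 and 58 of 68. It made 2 false calls in PGK and 4 in E14, against 22 by DESeq2 in PGK. A gene that was not called may thus have changed 2-fold or 4-fold. With 2 libraries per group precision is limited, and intervals and limits of 3 counts cover counting error only.

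Group and experiment come from the labels, where the experiment name is shared by libraries of different stages. Deviations of libraries with the same experiment name from their group means were compared between stages of a line. Between days 0, 4 and 10 Pearson r was 0.405 to 0.517 in PGK and 0.142 to 0.236 in E14. The diff2 libraries of these days are those with a code in their titles. Pairs with a later stage had r from -0.211 to 0.109. The block assumes the same difference between experiments at every stage of a line, which these values do not show. Values with the experiment as a block are given beside a result where they change a call. Alternatives were DESeq2 1.42.0 and its size factors, no filter, the block, a term for the library code, leaving out the 6 coded libraries or each library in turn, a joint fit of both lines, limma on the deposited log2 values, and another gene length. Members and lists were chosen with earlier results of these data known. Values per library were planned for Epha1, for 24 other members with the smallest adjusted p within a line and for the most abundant member of each family, and for up to 3 genes per partner list. Members outside this rule that are named with values were chosen after their values were seen. Tables of counts divided by size factors were not used, and 1 semaphorin gene is not reported here.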

Additional observations from a re-analysis of the deposited data

How the results depend on the processing

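With 2 libraries per group, 1 library decides many calls. Of 100 calls of a member in a comparison, 53 held under every alternative run and 47 were lost under at least 1. Of 222 counts of called members under an alternative, 153 were within 1.5 times the reported count and 69 were not. The cause was not tested. Shares of all genes called under an alternative are not given here. A count that moved thus describes the setting and is not a result about the members. For PGK from day 4 to day 10, 4 members were called as reported, 10 by DESeq2, 11 without the coded libraries, 7 with the replicate block, 7 by limma on the deposited log2 values and 14 when the code in the titles was a term of the fit. For PGK from day 4 to days 27 to 30, where 5 were reported, the counts were 15 by DESeq2, 8 with no filter, 12 with the block, 12 with the code term, 14 without the coded libraries and 9 by limma. For E14 against day 0, the 15 of day 4 became 27 by DESeq2 and 36 without the coded libraries, and the 22 of days 27 to 30 became 34 and 45. For E14 from day 4 to day 10, 0 became 1 with DESeq2's size factors in edgeR, 7 by DESeq2, 3 with no filter, 1 with the block, 9 without the coded libraries and 4 in the joint fit. From day 10 to days 19 to 23, 0 became 9 by DESeq2, 4 with no filter, 2 with the block, 18 without the coded libraries and 1 in the joint fit. From day 4 to days 27 to 30, 4 became 17 by DESeq2, 7 with no filter, 14 without the coded libraries and 8 in the joint fit.

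Between the lines, the 2 members of day 0 became 8 by DESeq2, 0 with the block, 4 with the code term and 22 without the coded libraries. At day 4, 0 became 3 by DESeq2, 1 with the code term and 4 without the coded libraries; at day 10, 9 without the coded libraries; and at days 19 to 23, 2 by DESeq2, 1 with no filter and 6 without the coded libraries. For the difference between the lines' changes, 0 became 3 by DESeq2, 1 with no filter, 1 with the block, 1 with the code term and 18 without the coded libraries at day 4, and 2 by DESeq2 and 18 without the coded libraries at days 27 to 30. Efna2 at day 0 was the 1 member that reversed, from -0.02 between the lines (not called) to 8.39 (adjusted p 0.00744, edgeR) without the coded libraries and 8.43 (adjusted p 0.0107) without the diff2 library of E14 at day 0, in a range from -0.85 over the libraries left out; the remaining E14 library there has no counts of it.

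Leaving out each library in turn gave 13 to 17 members for PGK at day 4, 2 to 6 from day 4 to day 10, 21 to 27 at days 27 to 30 against day 0 and 2 to 6 against day 4. In E14 it gave 11 to 32, 12 to 36 and 0 to 3 for day 4 and days 27 to 30 against day 0 and days 27 to 30 against day 4. Between the lines it gave 0 to 16 at day 0 and 0 to 1 at day 4, and for the differences of changes 0 to 10 and 0 to 9. An arm left with 1 library was assumed to vary like the other groups. The experiment as a replicate block added 23 calls of members and removed 4, each given with its values beside the result, and changed no other call of a member in the comparisons it was fitted to. Depth limits E14 most: 3 counts equal 0.888 and 1.48 CPM in its diff3 libraries of day 0 and day 4.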
